A study of Mus musculus with 51 samples.

Results

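The late astrocyte stage (lA) of an astroglial differentiation of mouse embryonic stem cells is described here by the regions that carried H3K27ac, H3K4me1 or both histone marks at day 5. Its members are all peaks of the H3K27ac list and of the H3K4me1 list of that stage on chromosomes 1 to 19. There were 90545 H3K27ac peaks and 203377 H3K4me1 peaks, 293922 in all, of the 784577 peaks that the 6 peak lists of the series hold on these chromosomes. A peak was placed with the other mark if it overlapped a peak of the other list by 1 bp or more, and without it otherwise.

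The cells had a C57/BL-6 background and came from embryonic stem cells through astrogliogenic neural precursor cells (aNPC), which were kept in DMEM-F12 with N2, EGF and FGF-2. They were differentiated for 5 days in DMEM with fetal bovine serum and LIF, a cytokine that signals through gp130, and the labels call them mature astrocytes (lA). Each mark was profiled by chromatin immunoprecipitation and sequencing (ChIP-seq) in 2 samples, so 4 of the 51 samples of the series are used here. The 2 samples of a mark were merged before peaks were called, without an input control. The peak lists therefore hold 1 value per region and mark, no spread between cultures can be given, and no comparison below is a test between samples. Intervals in parentheses are 95% Wilson intervals of a share, and they cover counting error over peaks only. The read depth of the merged libraries is unknown from the lists, so the strength of a peak is given by its fold over local background and its −log10 q and is ranked only inside its own list.

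H3K27ac is an acetyl mark deposited on nucleosomes by p300 and CBP, and it is found at enhancers and promoters in use. H3K4me1 is a methyl mark deposited mainly by MLL3 and MLL4 at enhancers, where it can be present before or without acetylation, a state often called primed. At active promoters the nucleosomes next to the start site usually carry H3K4me3 in place of H3K4me1, and H3K4me1 lies on their flanks.

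The sequences below show a region of each kind, so that the classes can be seen as DNA. Each is the 200 bp around the summit of a peak, read from the plus strand of mm9. Capitals mark exact matches, on either strand, to 14 short motifs that are spelled out with their frequencies further below. The first 6 are the peaks with the highest −log10 q of their class at a promoter and away from promoters, where the promoter is the stretch from 1 kb before a coding start site to 100 bp after it, and a peak is placed by its centre. Windows with annotated UTRs and 17 very strong H3K27ac peaks, which are described with the peak strengths, were passed over.
H3K27ac with H3K4me1, promoter of Stam, chr2:13995503-13995702: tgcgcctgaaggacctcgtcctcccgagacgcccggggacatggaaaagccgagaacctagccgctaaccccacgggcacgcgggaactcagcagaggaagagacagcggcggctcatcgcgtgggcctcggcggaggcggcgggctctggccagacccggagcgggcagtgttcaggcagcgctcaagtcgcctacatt
H3K27ac with H3K4me1, next to Cdipt, chr7:134119641-134119840: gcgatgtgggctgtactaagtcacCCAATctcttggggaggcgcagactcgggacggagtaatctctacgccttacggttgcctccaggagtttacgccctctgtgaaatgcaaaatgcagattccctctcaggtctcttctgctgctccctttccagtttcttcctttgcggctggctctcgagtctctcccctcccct
H3K27ac without H3K4me1, promoter of Taf9, chr13:101421088-101421287: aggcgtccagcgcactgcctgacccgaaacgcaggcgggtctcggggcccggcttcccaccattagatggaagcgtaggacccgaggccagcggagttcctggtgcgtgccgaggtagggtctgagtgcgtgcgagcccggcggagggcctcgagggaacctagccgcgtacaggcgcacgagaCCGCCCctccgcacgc
H3K27ac without H3K4me1, upstream of Mical3, chr6:121060233-121060432: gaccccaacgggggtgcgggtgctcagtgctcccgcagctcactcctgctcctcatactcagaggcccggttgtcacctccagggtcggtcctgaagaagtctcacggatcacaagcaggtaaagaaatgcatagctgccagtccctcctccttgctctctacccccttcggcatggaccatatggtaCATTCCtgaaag
H3K4me1 without H3K27ac, promoter of Crebzf, chr7:97590566-97590765: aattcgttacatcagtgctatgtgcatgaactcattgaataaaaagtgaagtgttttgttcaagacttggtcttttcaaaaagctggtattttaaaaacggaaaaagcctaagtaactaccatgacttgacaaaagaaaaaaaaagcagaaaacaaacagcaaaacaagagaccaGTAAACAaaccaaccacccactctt
H3K4me1 without H3K27ac, exon of Ankle1, chr8:73930101-73930300: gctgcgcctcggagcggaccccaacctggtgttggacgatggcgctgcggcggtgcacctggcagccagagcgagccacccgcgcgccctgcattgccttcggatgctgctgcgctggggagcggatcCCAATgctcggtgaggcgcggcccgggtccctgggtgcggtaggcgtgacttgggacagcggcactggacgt

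The Stam peak (1541 bp, −log10 q 286.5) peaked 124 bp before the start site, and its window held 22 CpG dinucleotides, a G+C content of 68.0% and no motif match. The Taf9 peak (824 bp, −log10 q 292.4) peaked 110 bp before the start of Taf9, which encodes a subunit of the general transcription machinery, with 24 CpG and a G+C content of 70.5%. The Cdipt peak counted as away from promoters by its centre, although its summit (−log10 q 303.9) lay only 122 bp before the start site. The Mical3 peak was narrow (411 bp, −log10 q 186.3) and lay between genes, 28706 bp before the nearest coding start site. The Crebzf peak was also narrow (264 bp) and A+T-rich (34.0% G+C), with the highest −log10 q (119.1) of the H3K4me1 peaks without H3K27ac. The Ankle1 peak (1085 bp, −log10 q 85.5) had its summit 278 bp inside the gene, in an exon, with 22 CpG.

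The next 4 sequences show regions of the tissue itself and a distal one. Gfap encodes the intermediate filament by which astrocytes are most often recognised, and the peak of each class nearest to its start site (chr11, position 102758514, minus strand), again with no UTR in its window, is given. The last was chosen after its values were seen, as the H3K4me1 peak without H3K27ac of highest −log10 q, by the same rule, more than 10 kb from any coding start site.
H3K27ac with H3K4me1, promoter of Gfap, chr11:102759130-102759329: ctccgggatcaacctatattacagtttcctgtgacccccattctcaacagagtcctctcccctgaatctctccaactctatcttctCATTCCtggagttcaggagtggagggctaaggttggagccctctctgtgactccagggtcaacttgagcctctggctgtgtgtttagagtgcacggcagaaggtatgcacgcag
H3K4me1 without H3K27ac, upstream of Gfap, chr11:102762636-102762835: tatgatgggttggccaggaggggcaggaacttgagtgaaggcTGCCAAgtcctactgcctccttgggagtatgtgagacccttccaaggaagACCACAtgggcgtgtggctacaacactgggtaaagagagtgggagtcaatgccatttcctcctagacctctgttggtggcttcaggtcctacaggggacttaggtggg
H3K27ac without H3K4me1, intron of Eftud2, chr11:102741845-102742044: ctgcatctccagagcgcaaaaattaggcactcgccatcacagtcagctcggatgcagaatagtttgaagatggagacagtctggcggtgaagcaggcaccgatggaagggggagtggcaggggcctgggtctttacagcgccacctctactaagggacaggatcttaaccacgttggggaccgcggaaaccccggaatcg
H3K4me1 without H3K27ac, intron of Lrmp, chr6:145122749-145122948: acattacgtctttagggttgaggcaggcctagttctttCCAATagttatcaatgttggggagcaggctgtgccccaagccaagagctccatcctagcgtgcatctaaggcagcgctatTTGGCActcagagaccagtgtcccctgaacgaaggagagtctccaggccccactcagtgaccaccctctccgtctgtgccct

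The Gfap promoter peak was 1662 bp wide, above 99.7% of the H3K27ac list in −log10 q (117.8) and its summit lay 716 bp before the start site, in an intron of the longer annotated Gfap gene. The H3K4me1 peak under it was 951 bp wide and stood above 77% of its own list. The H3K4me1 peak without H3K27ac lay further upstream, 4222 bp from the start site, was 390 bp wide and had a −log10 q of 10.6. Its window held a match to the site of nuclear factor I (NF1) and a match to that of the RUNX factors. The H3K27ac peak without H3K4me1 lay beyond the other end of Gfap, with its summit 16569 bp from the start site and 336 bp inside the neighbouring gene Eftud2, which encodes a subunit of the spliceosome. A nearer one, with its summit 13005 bp from the start site, was passed over by the rule on UTRs. The Lrmp peak was 1091 bp wide with a −log10 q of 70.5, and its window held matches to the NF1 and NFY sites.

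To find how far the marks coincided, each list was divided by the other. Most H3K27ac peaks carried H3K4me1, while most H3K4me1 peaks did not carry H3K27ac. Of the 90545 H3K27ac peaks, 74751 overlapped H3K4me1, which is 82.6% (82.3 to 82.8), and 15794 did not. Of the 203377 H3K4me1 peaks, 68754 overlapped H3K27ac, which is 33.8% (33.6 to 34.0), and 134623 did not. Both shares varied little along the genome, from 80.7% on chromosome 3 to 83.9% on chromosome 9 for H3K27ac and from 32.7% on chromosome 14 to 35.8% on chromosome 19 for H3K4me1. The shares moved with the length of the lists. With only the 90545 H3K4me1 peaks of highest −log10 q kept, 64.3% of the H3K27ac peaks overlapped H3K4me1 and 54.1% of the H3K4me1 peaks overlapped H3K27ac.

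The overlap was usually deep. The 81207 overlapping pairs shared a median of 320 bp, which was 84.2% of the H3K27ac peak and 47.1% of the H3K4me1 peak. In 34.1% of the pairs the H3K27ac peak lay wholly inside the H3K4me1 peak, and in 11.6% the reverse was true. In bases, 31.9 Mb carried both marks, 65.0% of all bases with H3K27ac and 27.5% of those with H3K4me1. Most H3K27ac peaks with H3K4me1 (68621) met a single H3K4me1 peak, and up to 5 H3K27ac peaks lay in 1 H3K4me1 peak. With each H3K27ac peak paired only with the H3K4me1 peak that overlapped it most, the summits were a median of 189 bp apart.

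Regions without the other mark were of unlike kinds. Of the H3K27ac peaks without H3K4me1, 63.4% had an H3K4me1 peak within 500 bp and 81.4% within 1 kb, with a median gap of 337 bp. Only 1551 of them (9.82%) lay more than 2 kb from any H3K4me1 peak, and 381 more than 10 kb. Of the H3K4me1 peaks without H3K27ac, 72.9% lay more than 2 kb from any H3K27ac peak, with a median gap of 7143 bp. The short gaps to H3K4me1 moved with the length of that list. With lists of equal length, chosen as an alternative after the values were seen, 32310 H3K27ac peaks had no H3K4me1, at a median gap of 1030 bp, with 49.5% within 1 kb and 39.7% beyond 2 kb. The H3K4me1 peaks without H3K27ac then had a median gap of 7926 bp, with 72.8% beyond 2 kb.

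To place the classes with respect to genes, the distance of each peak centre to the nearest coding start site was measured. H3K27ac peaks without H3K4me1 lay closer to genes than those with it, and H3K4me1 peaks without H3K27ac lay farther away than those with it. The median distance was 14283.5 bp (quartiles 540 and 67935.5) for H3K27ac without H3K4me1 and 27584 bp (6605 and 80613) for H3K27ac with it. The first value was 6012.5 bp at a −log10 q of at least 5 and 20585 bp with lists of equal length. It was 25638.5 bp for H3K4me1 with H3K27ac and 33492 bp (8819.5 and 102920.5) for H3K4me1 without it. At promoters lay 15.3% (14.8 to 15.9) of the H3K27ac peaks without H3K4me1, against 8.58% (8.38 to 8.78) of those with it, and the first share was the higher on all 19 chromosomes. The order was the reverse in the H3K4me1 list, where 8.65% (8.44 to 8.86) of the peaks with H3K27ac lay at promoters and 3.55% (3.45 to 3.65) of those without, again on all 19 chromosomes. Introns of coding genes held 45.9% of the H3K27ac peaks with H3K4me1, 42.9% of those without, and 49.3% of the H3K4me1 peaks without H3K27ac. Exons outside promoters held 4.27%, 6.86% and 3.56% of these classes, and 41.3%, 34.9% and 43.6% lay between genes.

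The share with H3K4me1 rose with distance from the start site up to 10 to 50 kb and was lower beyond. It was 68.1% (67.2 to 68.9) of the H3K27ac peaks within 500 bp, 76.8% from 1 to 2 kb, 87.1% (86.7 to 87.4) from 10 to 50 kb and 82.4% beyond 200 kb. Near start sites the share was lower on the transcribed side. Within 500 bp it was 64.4% (63.3 to 65.5) downstream and 74.0% (72.7 to 75.3) upstream, both below the 87.1% from 10 to 50 kb. From 500 bp to 1 kb it was 61.0% (59.1 to 62.8) downstream and 83.7% (81.9 to 85.4) upstream, and from 2 kb on the sides differed by little (83.5% and 85.7% from 2 to 5 kb). H3K4me1 peaks carried H3K27ac most often from 500 bp to 1 kb (62.1%, 61.0 to 63.1) and least often from 2 to 5 kb (25.1%, 24.4 to 25.9), with 34.2% from 10 to 50 kb.

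**Figure D1:**
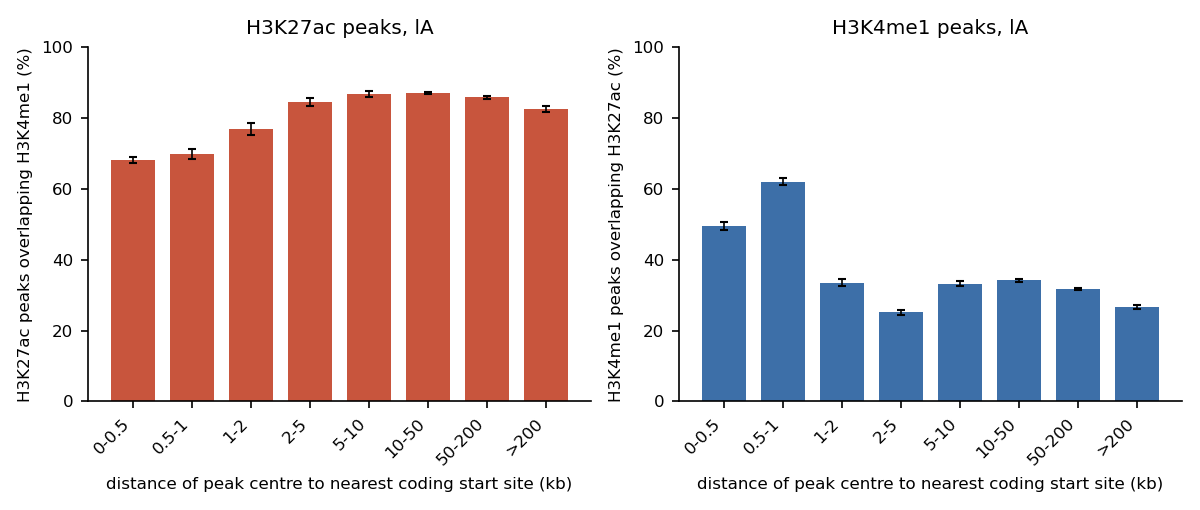
Bars give the share of H3K27ac peaks that overlap H3K4me1 (left) and of H3K4me1 peaks that overlap H3K27ac (right), in percent, by the distance of the peak centre from the nearest coding start site in kb. Error bars are 95% Wilson intervals. The left share is lowest within 500 bp (68.1%), and the right one is highest from 500 bp to 1 kb (62.1%).

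Around the start sites themselves the marks had different shapes. Over start sites with an H3K27ac peak in the promoter window, which by that choice are covered by H3K27ac, H3K27ac covered 57.8% at the start site and most (78.1%) 200 bp downstream. H3K4me1, which played no part in the choice, covered only 14.3% at these start sites. It rose to 42.4% at 550 bp upstream and 50.3% at 950 bp downstream, so that its cover had a gap between shoulders. Start sites without H3K27ac had no such gap: H3K4me1 covered 15.1% at the start site and at most 16.5%, 200 bp downstream. The same geometry was seen with each H3K27ac peak paired with the H3K4me1 peak that overlapped it most. The summits were a median of 299 bp apart at promoters and 182 bp apart elsewhere. The H3K27ac summit lay inside that H3K4me1 peak in 58.2% of the promoter peaks and 84.1% of the others. Of the 5100 H3K27ac peaks without H3K4me1 within 1 kb of a start site, 1917 (37.6%) had H3K4me1 within 1 kb on both sides, 2504 on 1 side and 679 on neither.

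**Figure D2:**
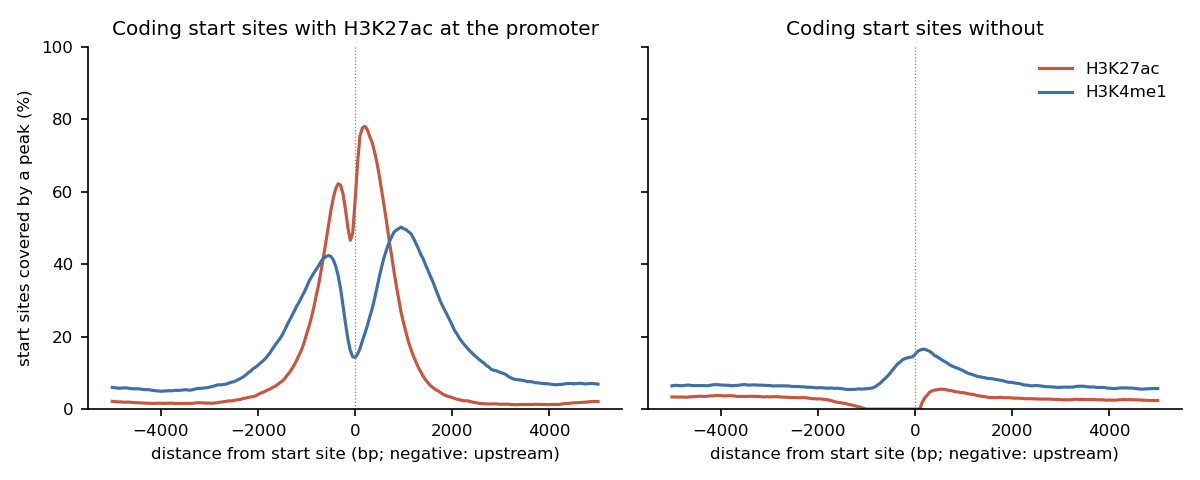
Lines give the share of coding start sites covered by a peak of each mark, in percent, at 50 bp steps from 5 kb upstream to 5 kb downstream, for start sites with (left) and without (right) an H3K27ac peak from 1 kb upstream to 100 bp downstream. The H3K4me1 line dips to 14.3% at acetylated start sites between shoulders of 42.4% and 50.3%. The H3K27ac lines are shaped by the choice of start sites.

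Peaks with the other mark were the wider ones. The median width was 461 bp (quartiles 289 and 733) for H3K27ac with H3K4me1 and 314 bp (228 and 503) without. For H3K4me1 it was 713 bp (443 and 1059) with H3K27ac and 369 bp (253 and 573) without. Both orders held on all 19 chromosomes. A wide peak offers more bases for an overlap, and its part in this difference was not tested. At promoters the H3K27ac peaks had median widths of 596 bp with and 451 bp without H3K4me1, and elsewhere 450 and 296 bp.

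Inside each list, strength and the presence of the other mark went together in different ways. When the H3K4me1 peaks were divided into deciles by −log10 q, the share with H3K27ac rose in every step, from 11.8% in the lowest decile to 74.5% in the highest. The H3K27ac peaks had H3K4me1 least often at both ends: 72.8% in the lowest decile, 89.2% in the 7th and 77.4% in the highest. Peaks away from promoters followed this course, with 72.7%, 90.8% and 80.7% in these deciles. Promoter peaks, with 75.9%, 72.0% and 69.4%, did not have the high value in the 7th. Width rose with −log10 q. Over all peaks of each decile of either list, the median width was larger with the other mark than without. In the 7th decile of H3K27ac it was 572 and 393 bp. Among promoter H3K4me1 peaks alone, the order was the reverse in decile 2 (253 bp with and 256.5 bp without H3K27ac) and in decile 10 (833 and 892 bp). The median fold over the whole H3K27ac list was 3.756 with and 3.396 without H3K4me1, and over the H3K4me1 list 4.25 with and 3.53 without H3K27ac.

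**Figure D3:**
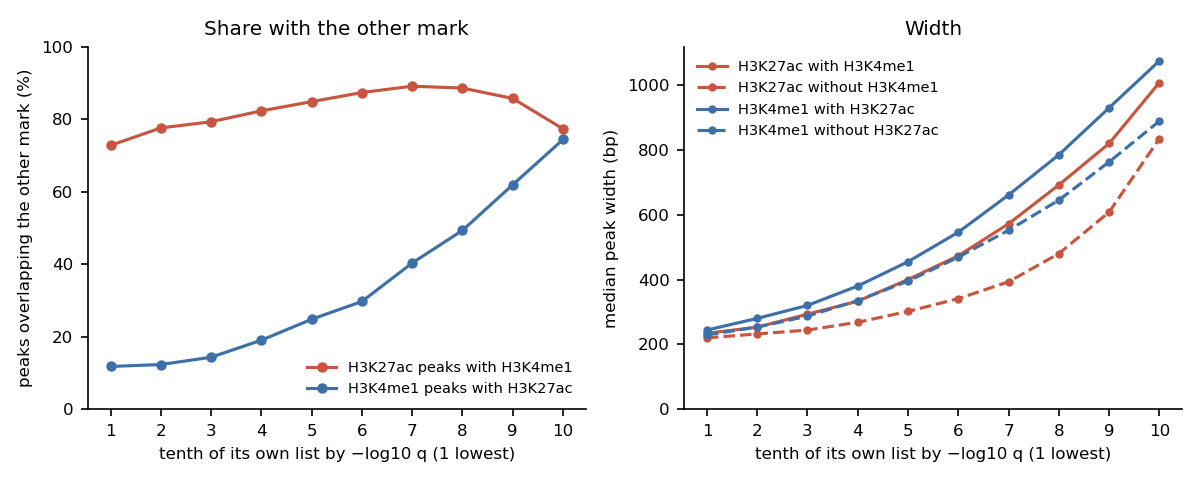
Left, the share of peaks that overlap the other mark in percent; right, the median peak width in bp with (solid) and without (dashed) the other mark. The x axis is the decile of a peak's own list by −log10 q. The H3K4me1 line rises from 11.8% to 74.5%, while the H3K27ac line peaks at 89.2% in the 7th decile and returns to 77.4%.

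A small set of regions was very strong in both lists. There were 17 H3K27ac peaks on 8 chromosomes with a −log10 q over 100 that overlapped an H3K4me1 peak over 100. In all, 513 H3K27ac peaks and only 26 H3K4me1 peaks passed 100. The strongest, chr2:98506431-98507597, had values of 16271.1 for H3K27ac and 12434.1 for H3K4me1. Of the 17, 12 had both edges within 50 bp of those of the H3K4me1 peak. Without an input control the part of local read pile-ups in them was not tested. Without these pairs the overlap shares were 82.6% and 33.8%.

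To relate the classes to genes, each of the 21410 coding genes was first given a promoter state by whether a peak of each mark overlapped the window of any of its start sites. Both marks were present at 40.0% of the genes, H3K27ac alone at 8.77%, H3K4me1 alone at 13.8% and neither at 37.5%. H3K27ac with or without H3K4me1 was thus present at 48.7% and H3K4me1 with or without H3K27ac at 53.7% of the coding genes, and the gene lists below are read against these shares. With 1 kb on either side of a coding start site as the window, both marks were present at 49.2%, H3K27ac alone at 3.15%, H3K4me1 alone at 13.6% and neither at 34.1%, so that the state of a gene depends on the window. Of the 173 genes of the lists, 26 had another state in the wider window, and the states below are those of the narrower one. Both marks at a gene need not overlap each other. The lists were chosen with results of these data known, so their counts are descriptions.

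Of the 22 astrocyte genes, 16 had H3K27ac at a promoter, against 48.7% of all genes. Both marks were present at 13: Gfap, Aqp4 (the water channel of astrocyte endfeet), the glutamate transporter genes Slc1a3 and Slc1a2, Aldoc, Glul (glutamine synthetase), Vim, Clu, Ndrg2, Mlc1, Acsbg1, Fabp7 and Sparc. H3K27ac alone was present at Gja1 (connexin 43), Cd44 and Thbs1. H3K4me1 alone was present at S100b, Apoe and Sparcl1, and neither mark at Gjb6, Aldh1l1 and Kcnj10. In the wider window Cd44 and Sparcl1 had both marks, Gjb6 and Aldh1l1 H3K4me1 alone and Kcnj10 H3K27ac alone. The last 3 genes were given acetylated regions: Aldh1l1 was given 13 H3K27ac peaks, Kcnj10 8 and Gjb6 2, where a peak goes to the gene of the nearest coding start site if it lies in a gene or within 50 kb of that site. Of all coding genes, 66.8% were given 1 or more H3K27ac peaks. At S100b, the promoter H3K4me1 peak was strong for its list (−log10 q 23.4, above 90.6% of it), and the acetylated regions of the gene had their summits 3619 and 4325 bp downstream of the start site.

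Genes of astroglial transcription factors were often acetylated too. H3K27ac was present at 25 of the 33 that were found, 20 of them with H3K4me1 as well. They included the nuclear factor I genes Nfia, Nfib, Nfic and Nfix, Sox9, Runx1, Runx2, Stat3, Zbtb20, Id1, Id2, Id4, Fos, Jund, Lhx2, Rfx4 and Prdm16, and also Sox2, Etv5 and Prdm9. Not every member is an astroglial factor by the paper, which describes Lhx2 as a factor of neurogenesis and reports the highest expression of Prdm9 in aNPC. H3K27ac alone was present at Atf3, Hes1, Fosl2, Jun and Zic1, which include immediate early and Notch target genes. H3K4me1 alone was present at Etv4, Id3, Hes5, Fosl1, Junb and Tead1, and neither at Sox8 and Cebpb. In the wider window Etv4, Id3, Junb, Tead1 and Zic1 had both marks and Sox8 had H3K4me1 alone. The members of this list were given a median of 7 H3K27ac peaks with H3K4me1, 3 without, and 9 H3K4me1 peaks without H3K27ac, against 1, 0 and 2 for all coding genes. The most acetylated regions with H3K4me1 were given to long genes, Zbtb20 (58 over 766722 bp), Nfia (44 over 429181 bp), Nfib (39 over 415578 bp), Tead1 (29 over 227488 bp) and Runx2 (24 over 318811 bp).

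In the gp130, JAK and STAT pathway, through which LIF acts, 10 of 14 genes had H3K27ac at a promoter. Among the receptors, Lifr and Il6ra had both marks, Osmr had H3K4me1 alone, and Il6st (gp130 itself) and Cntfr had neither, although Il6st was given 8 H3K27ac peaks. Among the kinases, Jak1 and Jak2 had H3K27ac alone and Tyk2 neither mark. Stat3 had both marks, as did Socs1, Pias3 and Ptpn11, while the feedback inhibitor gene Socs3 had H3K27ac alone.

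Neuronal genes mostly lacked H3K27ac at their promoters. Of the 25 proneural and neuronal genes, 4 had H3K27ac at a promoter (Tubb3, Map2, Gad1 and Dlx1, all with H3K4me1) and 15 had H3K4me1 alone, against 13.8% of all coding genes with H3K4me1 alone. The 15 included the proneural factor genes Neurog1, Neurog2 and Neurod1, Eomes, Dlx2, the splicing regulator gene Rbfox3 (NeuN), Elavl3, Elavl4, Syt1, Gad2, the neurofilament genes Nefl and Nefm, and the vesicular transporter genes Slc17a6, Slc17a7 and Slc32a1. Neither mark was present at Neurod2, Neurod4, Neurod6, Tbr1, Snap25 and Stmn2. In the wider window Dlx2 had both marks, and Neurod2 and Snap25 had H3K4me1 alone. Acetylated regions were nevertheless given to 17 of the 25 genes (68%), close to the 66.8% of all coding genes, and the median was 2 H3K27ac peaks with H3K4me1 against 1 for all. No H3K27ac peak was given to Neurog2, Neurod1, Neurod4, Tbr1, Slc17a6, Slc17a7, Slc32a1 or Nefm, all of which were given 1 to 7 H3K4me1 peaks without H3K27ac.

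Lists of other cell types gave a description of the same kind, not independent evidence of the cell type. Neural progenitor genes were mixed, with H3K27ac at 8 of 15 promoters. Among these, Nes, Pax6, Egfr, Fgfr1, Fgfr2 and Fgfr3 had both marks and Notch2 had H3K27ac alone. H3K4me1 alone was present at Prom1, Notch1 and the proliferation genes Mki67 and Top2a, and neither mark at Olig2, Ccnd1 and Ccnd2. In the wider window Prom1 and Notch1 had both marks, and Olig2 and Ccnd2 had H3K27ac alone. Mki67 was given 5 H3K27ac peaks with H3K4me1 and Ccnd1 8, while Top2a was given 0. H3K27ac was present at 1 of 12 oligodendrocyte genes (Pdgfra, a gene of oligodendrocyte precursors), 1 of 12 pluripotency genes (Klf4), 1 of 10 microglia and blood genes (P2ry12), 2 of 8 endothelial and mural genes (Kdr and Acta2) and 0 of 11 genes of other tissues. H3K4me1 alone was present at 5 of the 12 oligodendrocyte genes (Olig1, Mbp, Myrf, Mobp and Ugt8a) and 4 of the 12 pluripotency genes (Esrrb, Dppa3, Fgf4 and Sall4), also against 13.8% of all coding genes, so that this state was not seen at neuronal genes alone. It was present at Aif1, Tek and Ins2 in the other lists. Counted by all peaks given to a gene, promoter peaks included, 9 of 12 oligodendrocyte genes (75%) and 7 of 8 endothelial and mural genes (87.5%) were given H3K27ac, against 66.8% of all coding genes. The share was 100% for the astrocyte and gp130 lists, 93.9% for the astroglial transcription factors, 93.3% for neural progenitor and 91.7% for housekeeping genes. It was 50% for pluripotency, 40% for microglia and blood and 18.2% for other tissues. The median number of H3K27ac peaks with H3K4me1 was 2.5 for the oligodendrocyte, 3.5 for the endothelial and mural and 3 for the astrocyte genes. It was 6 for the neural progenitor and 2.5 for the housekeeping genes. Sox10, Mog, Mag and Cnp, Pou5f1 and Nanog, Csf1r, Itgam and Ptprc, and Cdh5 and Pecam1 had neither mark at a promoter. All 12 housekeeping genes had both marks. With a window of 1 kb on either side of a coding start site, H3K27ac was present at 52.3% of all coding genes, at 18 astrocyte, 29 astroglial transcription factor, 5 neuronal, 12 progenitor and 3 oligodendrocyte genes (Olig1 and Cnp then had both marks), and the other lists kept their counts. These are chromatin states of a whole culture, and a mark in a few cells cannot be told apart from a weak mark in all.

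**Figure D4:**
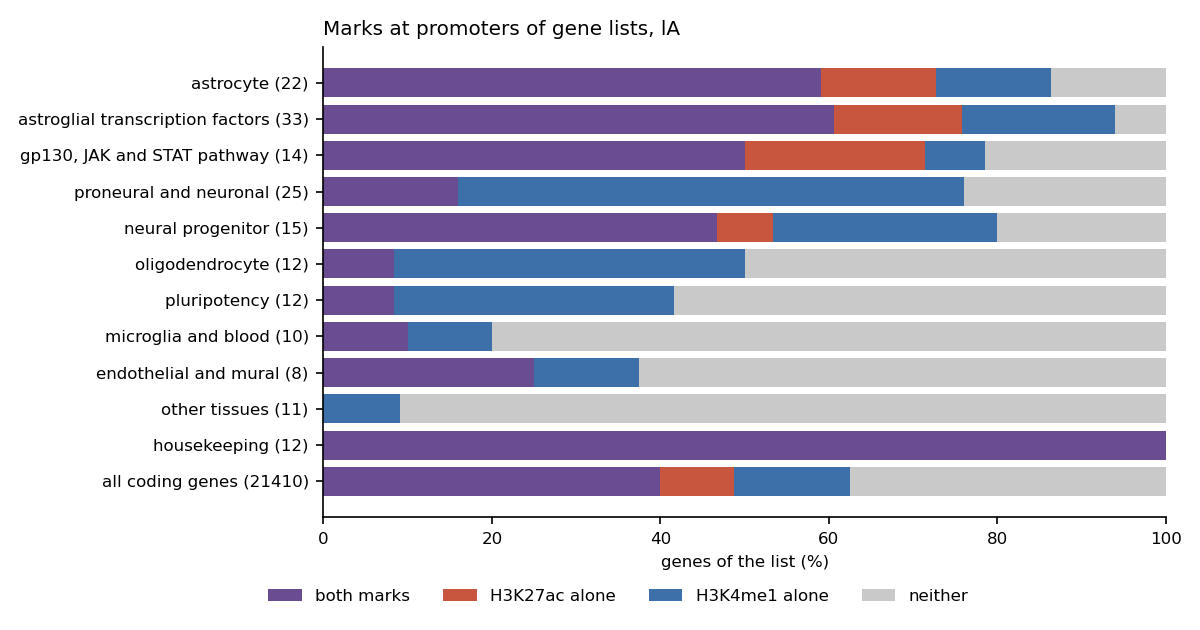
Bars give the share of the genes of each list, in percent, by the marks at their promoters, with the number of genes found in parentheses and all 21410 coding genes at the bottom. Blue, H3K4me1 alone, is the longest part for the proneural and neuronal genes (15 of 25), and the astrocyte and astroglial transcription factor genes have H3K27ac at 16 of 22 and 25 of 33.

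Single loci varied widely. Over Gfap and 20 kb on either side there were 10 H3K27ac peaks, 8 of them with H3K4me1, and 9 H3K4me1 peaks, 7 of them with H3K27ac. Over Runx2, which encodes a transcription factor best known from bone, there were 35 H3K27ac peaks, 27 with H3K4me1, and 58 H3K4me1 peaks, 34 of them without H3K27ac. At Neurog2 there were no H3K27ac peaks, and 2 H3K4me1 peaks. The larger of them, 2240 bp wide, spanned the start site and had a −log10 q (35.0) above 98.1% of the H3K4me1 list. Rbfox3 lay between, with 6 H3K27ac peaks over its 421838 bp and flanks, and 30 H3K4me1 peaks of which 25 lacked H3K27ac. Of the H3K4me1 peaks, 4 had H3K27ac and 13 did not at Stat3, and 2 had it and 5 did not at S100b; in the whole list 66.2% lacked it. Pou5f1, a pluripotency gene, had 3 H3K27ac peaks with H3K4me1 and 1 without in this range. Counts over a range include peaks given to other genes. Pou5f1 itself was given 0 H3K27ac peaks and had neither mark at its promoter, and Gfap was given 3, all with H3K4me1.

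**Figure D5:**
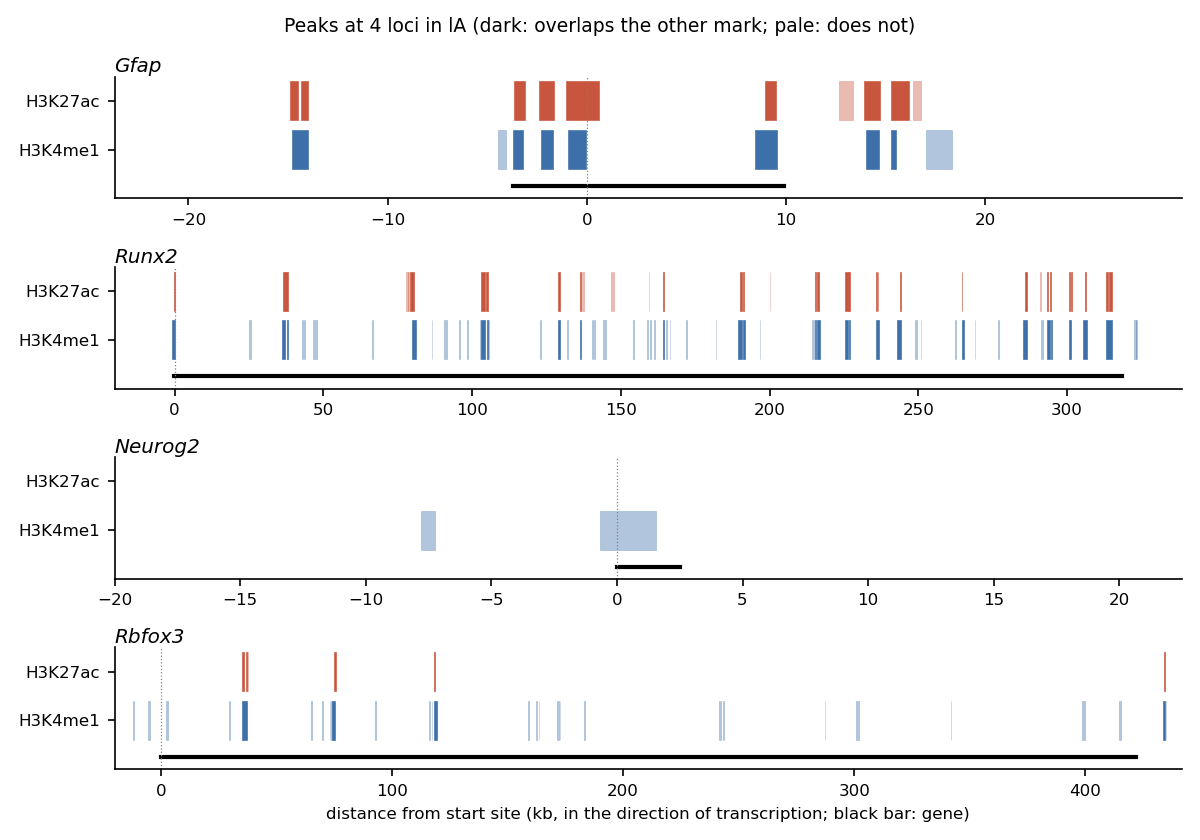
Boxes are peaks of each mark along 4 genes with 20 kb on either side, by distance from the start site in kb in the direction of transcription, and the black bar is the gene. Dark boxes overlap the other mark and pale ones do not. Gfap has 8 of 10 H3K27ac peaks dark, and Neurog2 has no H3K27ac box and a wide pale H3K4me1 box over its start site.

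The genes with most peaks of each class were mostly very long ones, and the count of a gene is a count inside its class. H3K27ac peaks with H3K4me1 were most frequent at Nckap5 (60), Zbtb20 (58), Camta1 (55), Ctnnd2 (55), Ptprg (52), Adamtsl1 (51), Lrtm1 (48), Opcml (48), Pde4b (47) and Pde4d (47). Zbtb20 encodes a zinc finger factor that promotes astrogliogenesis, Pde4b and Pde4d encode cAMP phosphodiesterases, and Ptprg a receptor phosphatase. Apart from Lrtm1, these genes are 374471 to 1503528 bp long, against a median of 15526.5 bp for all coding genes. Per 100 kb of gene, Adamtsl1 had 13.6 such peaks, Zbtb20 7.57 and Pde4d 3.13. Lrtm1 is 15435 bp long and lies inside Cacna2d3, so peaks in that calcium channel subunit gene went to Lrtm1 where its start site was the nearest. All 10 genes but Opcml, with H3K4me1 alone, had both marks at a promoter. The ranking depended on the 50 kb limit: without it 3 of these 10 genes stayed among the first 10 and Tbl1xr1 (73) came first, while at a −log10 q of at least 5, 7 stayed.

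H3K27ac peaks without H3K4me1 were few at any gene. Only 18 genes had 10 or more of them, against 1393 genes with 10 or more H3K27ac peaks with H3K4me1. The first 10 were Lrtm1 (17), Sema6d (17), Npas3 (16), Lrrn3 (14), Ank2 (13), Iqsec1 (13), Tcf4 (13), Tns3 (12), 2010111I01Rik (11) and Aqp4 (11). Tcf4 encodes an E protein that pairs with proneural factors, Sema6d a semaphorin and Npas3 a neural bHLH-PAS factor. Lrrn3 lies inside Immp2l. Aqp4, Lrtm1 and Lrrn3 are the short genes of the list (14291, 15435 and 34079 bp), and Aqp4 was given 30 H3K27ac peaks, 19 with H3K4me1 and 11 without. With only peaks of −log10 q of at least 5, 3 of these 10 genes stayed among the first 10, and without the 50 kb limit 5 did, with Tbl1xr1 (30) first.

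H3K4me1 peaks without H3K27ac were most frequent at Rora (127), Rbms3 (123), Ptprg (113), Pde4d (111), Nckap5 (110), Csmd1 (103), Ntm (102), Fhit (100), Kirrel3 (96) and Npas3 (96). Rora encodes an orphan nuclear receptor and Ntm and Kirrel3 adhesion molecules of the immunoglobulin family. Ptprg, Pde4d and Nckap5 were also among the first 10 for H3K27ac with H3K4me1, and Npas3 among the first 10 for H3K27ac without it. Ntm had 102 such peaks and only 13 H3K27ac peaks over 968392 bp, while Rora had 54 H3K27ac peaks. Without the 50 kb limit 6 of these 10 genes stayed and Kirrel3 (146) came first, and at a −log10 q of at least 5, 8 stayed.

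A further set of 3012 coding genes (14.1%) was given H3K4me1 peaks and no H3K27ac peak. A peak goes to 1 gene only, so these genes need not be unacetylated: 236 of them (7.84%) had H3K27ac at their own promoter, in a peak given to another gene. Those with most H3K4me1 peaks were Car10 (38), Trim42 (30), Shisa6 (28), Luzp2 (27), Rftn1 (23), 5730522E02Rik (22), Ror2 (21), Col6a6 (20), Oxgr1 (20) and D630036H23Rik (19). Car10 encodes a carbonic anhydrase-related protein of synapses, Shisa6 an auxiliary protein of AMPA receptors, Ror2 a Wnt receptor and Col6a6 a collagen chain. H3K4me1 alone was present at the promoters of Car10, Shisa6, Luzp2, Rftn1 and Ror2, and neither mark at the other 5. D630036H23Rik had both marks in the wider window. Trim42 (20397 bp), Oxgr1 (22851 bp) and D630036H23Rik (940 bp) are short genes, and peaks up to 50 kb from a start site or in a neighbouring gene count for them.

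The DNA of the classes differed most at promoters. Promoter summit windows of H3K27ac peaks had a median of 12 CpG in 200 bp without H3K4me1 and 8 with it, and a median G+C content of 60.0% and 55.5%. The windows at the summits of promoter H3K4me1 peaks had a median of 4 CpG with and without H3K27ac. Away from promoters the medians were 2 CpG in all 4 classes, and 47.0% to 49.0% G+C.

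Motifs were counted as exact matches on either strand in these windows. The letters were TGACTCA for AP-1, TTGGCA for NF1, TGTGGT for RUNX, TTCCNGGAA for STAT, CATTGT for SOX, GGAATG for TEAD, TGTTTAC for FOX, CAGCTG as well as CAGATG for E-boxes, TGACGTCA for CRE, CCAAT for NFY, GGGCGG for KLF and SP factors, GCATGCGC for NRF1 and CCGGAAGT for ETS. The NF1 letters and the reverse complement of the NFY letters share TTGG, so that a stretch can match both. A match is a description of the sequence and does not show that a factor binds there.

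GGGCGG, the letters of KLF and SP factors, was the motif with the widest range. It was present in 29.9% (28.1 to 31.7) of the promoter windows of H3K27ac peaks without H3K4me1 and 20.8% (19.8 to 21.8) of those with it, against 7.33% of all H3K27ac windows. In windows of 500 bp these shares were 65.4% and 52.9%. Away from promoters they were 9.60% (9.12 to 10.1) without and 4.81% (4.66 to 4.98) with H3K4me1 in 200 bp. Peaks just past the promoter window count as away from promoters, and those within 1 kb of a start site made up 20.02% of this set without H3K4me1 and 6.87% with it. Beyond 1 kb, an alternative added after the values were seen, the shares were 3.37% (3.04 to 3.73) without and 3.23% (3.10 to 3.37) with H3K4me1, and their intervals overlapped. The ETS letters were present in 1.53% (1.11 to 2.10) of the promoter windows without and 0.780% (0.592 to 1.03) of those with H3K4me1, and in 500 bp in 6.73% (5.80 to 7.80) and 5.26% (4.74 to 5.83), where the intervals overlapped.

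The NF1 letters had the reverse order. Away from promoters they were present in 8.83% (8.36 to 9.33) of the windows of H3K27ac peaks without H3K4me1, 11.8% (11.53 to 12.02) of those with it, 15.1% (14.8 to 15.3) of the H3K4me1 peaks with H3K27ac and 17.1% (16.9 to 17.3) of the H3K4me1 peaks without it. Beyond 1 kb of a start site the H3K27ac peaks kept this order, with 9.67% (9.12 to 10.24) without and 12.15% (11.9 to 12.41) with H3K4me1. The TEAD letters (10.16%, 11.6%, 13.3% and 15.98%) and the SOX letters (9.05%, 10.05%, 10.99% and 12.9%) followed the same order of classes away from promoters. The RUNX letters were at 12.98%, 14.6%, 15.1% and 14.9% in these classes, and those of AP-1 at 3.201%, 3.71%, 5.48% and 5.28%. Beyond 1 kb the 2 H3K27ac classes had overlapping intervals for TEAD (11.01% without and 11.85% with H3K4me1), SOX (10.51% and 10.48%), RUNX (14.43% and 15.04%) and AP-1 (3.591% and 3.848%). NF1 was not alone in keeping its order there, since the intervals of both E-boxes were apart too. CAGCTG was at 10.32% (9.76 to 10.91) without and 12.95% (12.69 to 13.21) with H3K4me1. CAGATG was at 15.35% (14.67 to 16.04) without and 17.06% (16.77 to 17.35) with it. In 500 bp the AP-1 letters were present in 13.33% (13.07 to 13.6) of the H3K4me1 peaks with H3K27ac and 11.9% (11.72 to 12.07) of those without. In 200 bp, STAT letters were rare in every class, from 0.643% to 0.946% away from promoters and from 0.619% to 0.925% at promoters. In all, 10 of the 14 motifs were more frequent in the windows away from promoters of H3K27ac peaks with H3K4me1 than in those without, and CRE, KLF and SP, NRF1 and ETS were not, with overlapping intervals for STAT, FOX, CRE, NRF1 and ETS in 200 bp. In 500 bp the count was also 10, the intervals of FOX and ETS no longer overlapped and those of NFY did. Beyond 1 kb the count was 8, since SOX and NFY (23.02% with and 23.62% without H3K4me1) turned round, both with overlapping intervals. The median G+C content of the 2 sets of windows was the same, 48.5%, while the upper quartile of CpG was 3 with and 5 without H3K4me1. The windows of the H3K4me1 list are centred on H3K4me1 summits and so are not the same positions.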

How the data were processed

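The 4 ChIP-seq samples at lA comprise 2 per mark. The authors aligned unique reads to mm9 with Bowtie, merged the samples with SAMtools (0.1.19 in the submitters' notes) and called peaks with MACS2 at default settings without input, which gave 1 list per mark. In the deposited lists the score is 10 times the −log10 q, cut to a whole number. The fold in the deposited lists is the enrichment at the summit over the local background. The deposited −log10 q is that of the summit, and it was never compared between lists. Depth is unknown, and no column was per sample (0 such columns were left unused).

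Peaks on chromosomes 1 to 19 were kept (2155 H3K27ac and 4956 H3K4me1 peaks on X and Y and 5 of each list elsewhere were left out). Genes came from GENCODE M1 on NCBIM37, the assembly of mm9, and for genes of the lists older symbols were matched through RefSeq synonyms. Cebpd and Gata1 were not matched to a coding gene of these chromosomes. No test was run. The interval functions gave the known answers on simulated peaks. Alternatives were the overlap rule, a −log10 q minimum of 5, lists of equal length, chromosomes X and Y, the promoter definition, the summit in place of the centre, the limit on gene distance and a 500 bp motif window. The members, gene lists and motifs were chosen with earlier results of these data known. Named were members of the gene lists (some are not reported here), the 10 genes with most peaks of each class, and the strongest and the Gfap peaks. Sequence windows on chromosome 18 were not considered. The other stages and the RNA-seq were not used here. Python 3.11.15, NumPy 2.4.6, pysam 0.24.0, samtools 1.23.1 and matplotlib 3.10.9 were used.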

Additional observations from a re-analysis of the deposited data

How the results depend on the processing

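No paired analysis was possible because the samples of a mark were merged before peaks were called, and leaving out a sample was not possible for the same reason. Depth is unknown, so the lower end of either list may move with sequencing. Under the alternatives run, the contrasts in promoter share, width and distance between peaks with and without the other mark kept their direction inside each list. The order across the lists changed for some values, and the values below moved by more than their intervals. The share of H3K27ac peaks with H3K4me1 and of H3K4me1 peaks with H3K27ac was 73.58% and 29.78% when an overlap had to cover 50% of the shorter peak, 93.62% and 42.23% when peaks up to 500 bp apart counted, 81.19% and 33.21% at a −log10 q of at least 5, and 64.32% and 54.06% with the same number of peaks in both lists. It was 82.16% for H3K27ac with chromosomes X and Y added. The latter alternatives on strength keep fewer peaks (69909 and 162715, or 90545 of each list), and the other causes were not tested.

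Values for H3K27ac with H3K4me1, H3K27ac without, H3K4me1 with H3K27ac and H3K4me1 without follow in that order, leaving out those that stayed within their intervals. With the 50% overlap, the promoter share was 7.555% for H3K27ac with H3K4me1 and 7.961% and 4.13% for H3K4me1, the median width was 465, 345, 736 and 377 bp, and the median distance was 29112.5 bp for H3K27ac with H3K4me1 and 28103 and 31903 bp for H3K4me1. With peaks up to 500 bp apart, the promoter share was 9.296%, 16.54%, 9.131% and 2.449%, the width was 440, 307 and 629 bp for the first 3 classes, and the distance was 26167.5, 11899, 23498 and 36537.5 bp. At a −log10 q of at least 5, the promoter share was 9.863%, 19.24%, 9.537% and 3.931%, the width was 557, 399, 775 and 460 bp, and the distance was 25176, 6012.5, 23564 and 32920 bp. With the same number of peaks, the promoter share was 8.335%, 12.32%, 8.331% and 5.202%, the width was 495, 341, 874 and 636 bp, and the distance was 20585 bp for H3K27ac without H3K4me1 and 28734 bp for H3K4me1 without H3K27ac. With promoters reaching 1 kb to either side of any start site, the promoter share was 17.37%, 34.51%, 17.34% and 8.065%. Placed by summit, it was 15.93% for H3K27ac without H3K4me1. With X and Y, the width of H3K4me1 with H3K27ac was 708 bp. Of the 30 places in the 3 lists of 10 genes, 14 kept their gene among the first 10 without the 50 kb limit and 18 at a −log10 q of at least 5. The pairs with −log10 q over 100 in both lists were left out as an alternative chosen after seeing the data. The gaps with equal lists and the motifs beyond 1 kb were also added then.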
